A study of Mus musculus with 6 samples.

Results

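The Kruppel-like factors (KLFs) are zinc finger transcription factors, and 10 of their genes, *Klf2*, *Klf3*, *Klf4*, *Klf5*, *Klf6*, *Klf7*, *Klf9*, *Klf10*, *Klf13* and *Klf15*, were followed in mouse aortic smooth muscle cells (MASMCs). They were taken from the table by gene name, and they are 10 of the 16 *Klf* genes among the 41721 genes of the count table. All KLFs share a DNA-binding end of zinc fingers that reads GC boxes and CACCC elements, and they differ in the rest of the protein, which recruits either activators or repressors. KLF4 is best known in smooth muscle as a repressor of contractile genes during the switch to a synthetic state, and KLF5 is known there as a driver of growth. KLF2 is a flow-induced factor of endothelium, KLF9 and KLF13 are repressors that bind Sin3, KLF10 is an early gene of TGF-β signaling, and KLF15 is a metabolic regulator that restrains growth of muscle.

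MASMCs were isolated by collagenase digestion from abdominal aortas of mice aged 10 weeks and grown in culture, and all of them were treated with angiotensin II (Ang II), at 1 μM for 48 h by the study's methods. Pdk4fl/fl mice carry floxed alleles of *Pdk4* and no Cre, and Pdk4SMKO mice carry the same floxed alleles with Myh11-Cre, a tamoxifen-inducible Cre driven by the promoter of a smooth muscle myosin gene. By the study's methods both genotypes received tamoxifen. PDK4 is a kinase that inhibits the pyruvate dehydrogenase complex. The comparison asks how the transcripts of Ang II-treated MASMCs differ between the genotypes, with 3 libraries of each. No library of cells without Ang II was analysed here, so both genotypes are seen in the treated state alone. Nothing in the labels says whether the 3 libraries of a genotype came from separate mice, so p-values measure the spread between these libraries, which may be technical.

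Between 16526044 and 22481670 reads were counted per library, and a count of 3 corresponded to 0.132 to 0.227 CPM, the counts of a gene relative to the library total after scaling of the libraries by edgeR's TMM factors. *Pdk4*, the targeted gene, had 38.0, 35.1 and 31.9 CPM in the Pdk4fl/fl libraries and 4.83, 9.06 and 6.92 CPM in the Pdk4SMKO libraries, a log2 fold change of -2.34 ± 0.22 (SE, adjusted p = 4.49e-06, edgeR quasi-likelihood test). The genotypes differed across the transcriptome. Of 14085 genes tested, 59.3% were called, 32.8% as higher and 26.5% as lower in Pdk4SMKO, where called means an adjusted p under 0.05 and at least a 2-fold change. Libraries of one genotype correlated at 0.987 or more and libraries of different genotypes at 0.797 or less. *Xist*, which is transcribed from the inactive X chromosome of female cells, had 3 to 5 counts in the Pdk4fl/fl and 321 to 610 counts in the Pdk4SMKO libraries, although the study's methods describe male mice and a Y-linked Cre transgene. Cell markers differed as well. The summed level of 8 mesothelial markers was 74.2 to 99.99 CPM against 723 to 1325 CPM, and that of 8 fibroblast markers 639 to 862 CPM against 5645 to 7332 CPM. Most of the fibroblast sum was *Col1a1*, at 619.7 CPM in Pdk4fl/fl and 5901 CPM in Pdk4SMKO cells on average. Of the 8 fibroblast markers 5 were called higher and 1 lower, and 2 were not called. The 8 smooth muscle markers summed to 785 to 811 CPM against 723 to 954 CPM, and *Myh11*, the defining marker, was at 0.613 and 2.39 CPM. The similar sums hid opposite changes, since 4 of the 8 were called higher and 3 lower, and 1 was not called. *Acta2* rose from 233 to 701 CPM, while *Smtn* fell from 280 to 57.5 CPM and *Tagln* from 253 to 52.7 CPM. Every fold change below compares these same cultures. *Xist* and the mesothelial and fibroblast sums separated completely by genotype. The part that sex or cell make-up played in a fold change thus cannot be told apart from that of genotype here, and it was not tested.

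To show where the genes start, the upstream sequence of the RefSeq promoter table was read for the members it held, 8 of the 10. *Klf5* and *Klf10* had no entry. The 3 promoters printed here are those of *Klf2*, with the largest fold change, of *Klf4*, with the highest mean CPM per kb in Pdk4SMKO cells (where its range overlapped that of *Klf9*), and of *Klf6*, with the highest in Pdk4fl/fl cells. Each is the 250 bases before the start, 5′ to 3′ in the direction of the gene, in build GRCm38.p6. *Klf2* is at chr8:72318812-72319061 on the plus strand, *Klf4* at chr4:55532476-55532725 on the minus strand and *Klf6* at chr13:5861239-5861488 on the plus strand. Capitals mark a MEF2 site in *Klf2*, a CACGTG in *Klf4*, and CCAAT (or ATTGG on the other strand) and CACGTG in *Klf6*.
Klf2: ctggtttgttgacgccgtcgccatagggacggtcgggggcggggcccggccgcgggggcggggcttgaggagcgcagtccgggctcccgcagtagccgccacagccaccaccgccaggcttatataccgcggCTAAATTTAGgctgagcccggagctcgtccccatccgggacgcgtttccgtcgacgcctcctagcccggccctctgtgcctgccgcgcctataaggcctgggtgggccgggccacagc
Klf4: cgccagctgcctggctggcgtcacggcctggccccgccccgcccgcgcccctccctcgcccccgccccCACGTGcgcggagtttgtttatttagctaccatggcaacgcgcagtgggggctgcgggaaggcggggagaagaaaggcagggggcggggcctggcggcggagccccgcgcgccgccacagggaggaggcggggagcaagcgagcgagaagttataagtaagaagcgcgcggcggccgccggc
Klf6: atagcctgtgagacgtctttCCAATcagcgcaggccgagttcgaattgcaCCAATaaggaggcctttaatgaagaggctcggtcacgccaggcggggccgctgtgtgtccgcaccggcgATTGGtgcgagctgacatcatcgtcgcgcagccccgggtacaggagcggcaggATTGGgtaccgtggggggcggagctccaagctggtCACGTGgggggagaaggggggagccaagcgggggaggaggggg

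All 8 promoters were rich in G and C, with a median of 71.4% against 52.4% over the 32851 promoters of the table. GGGCGG, the GC box that Sp and KLF proteins bind, was found on either strand in 7 of 8 promoters and in 32.7% of all promoters. CACCC, the element that the erythroid KLF binds in globin promoters, was in 6 of 8 (52.0% of all), and CCAAT was in 4 of 8 (33.8% of all). CACGTG, the E-box of clock and MYC proteins, was in the promoters of *Klf4*, *Klf6* and *Klf15* and in 6.02% of all. The MEF2 site, the target of the ERK5-MEF2 pathway, was in *Klf2* alone, starting 118 bases before the start, and in 2.92% of all. The glucocorticoid response element was searched as a single fixed pattern, which only 2 of the 32851 promoters held. A pattern this rare would hardly be met in 8 windows. Its absence there thus cannot tell whether these genes have such an element. Neither TATAAA (12.4% of all), TGACGTCA (1.55%), a CArG box (1.47%), an NF-κB site (7.25%) nor a glucocorticoid response element (0.00609%) was present in any of the 8 windows. Matches were counted on both strands and can overlap, as a pair of GGGCGG in *Klf4* and a CACCC with a GGGCGG in *Klf3* and *Klf13* do. The 3 members with a CACGTG comprised *Klf4*, which was higher in Pdk4SMKO cells, *Klf6*, which was lower, and *Klf15*, which was not called.

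*Klf* transcripts moved in both directions. *Klf2*, *Klf4*, *Klf7*, *Klf9* and *Klf13* rose and *Klf6* and *Klf10* fell in Pdk4SMKO MASMCs, directions that held under every library scaling tried but not relative to single reference genes (*Klf4*, *Klf7* and *Klf9* turned relative to *Actb*, *Klf6* and *Klf10* relative to *B2m* and *Klf6* relative to *Rplp0*). Thus 7 of 10 members were called, beside 59.3% of all genes tested, with 5 higher (32.8% of all genes) and 2 lower (26.5%). At an adjusted p under 0.05 with no limit on the fold, 9 of 10 passed (79.1% of all genes), and in 9 of 10 the libraries of the genotypes did not overlap (81.8%). These shares are close to those of all genes tested, so being called does not set the members apart. The log2 fold changes ran from -2.36 to 4.11 with a median of 1.22, and the median of all genes was 0.12. For each of the 9 non-overlapping members the exact two-sided permutation test gave p = 0.1, the smallest that 3 libraries against 3 allow. All 10 passed the filter on low counts, but only 1 of the 3 Pdk4fl/fl libraries reached its level for *Klf2*, which therefore passed through the Pdk4SMKO libraries. Pdk4fl/fl replicate 3 was the lowest of its genotype for 9 of 10 members but for only 38.2% of all genes tested.

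**Figure D1:**
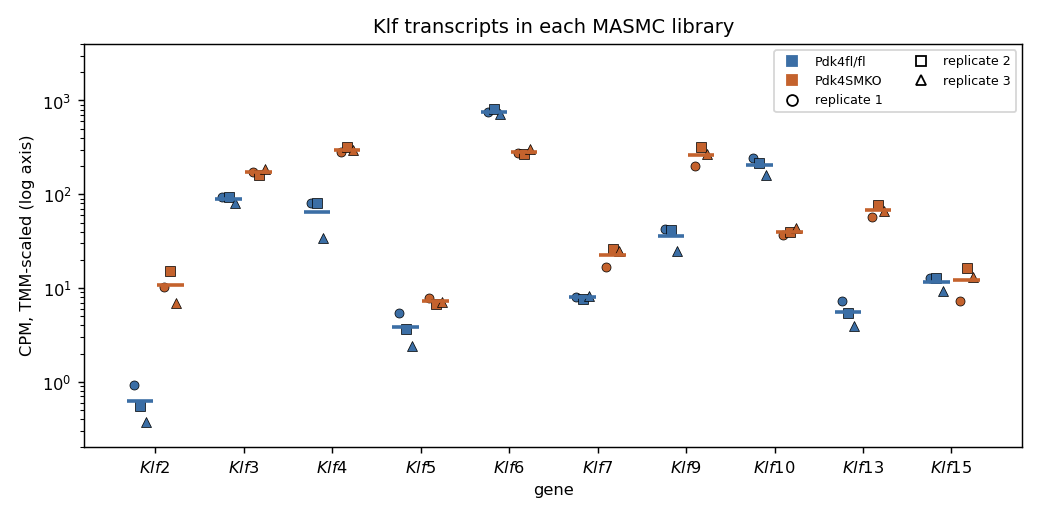
Level of each *Klf* gene in each of the 6 libraries, as TMM-scaled CPM on a log axis; symbols mark the replicate and bars the genotype mean. *Klf2* and *Klf13* have the widest gaps between the genotypes, *Klf6* and *Klf10* lie lower in Pdk4SMKO, *Klf15* overlaps, and relative to single reference genes (*Actb*, *B2m*, *Rplp0*) some of these directions turn.

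**Figure D2:**
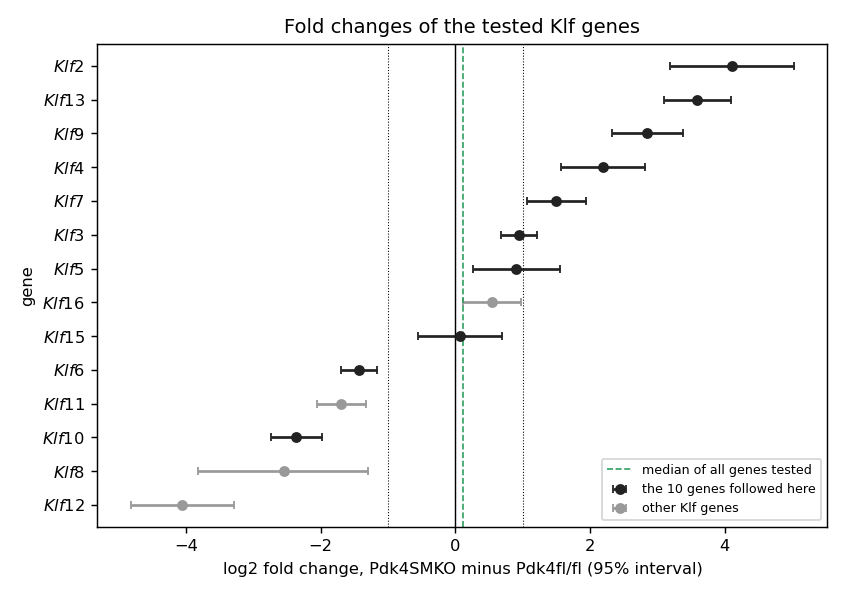
Log2 fold change of the 14 tested *Klf* genes with its 95% interval from the edgeR fit, in order of size; dotted lines mark a 2-fold change and the dashed line the median of all genes tested. The genes run from -4.05 for *Klf12* to 4.11 for *Klf2* on the TMM scale, and relative to *Actb*, *B2m* or *Rplp0* the sign of some of them differs.

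Among the KLFs that act largely as activators, *Klf4* (chromosome 4 from 56199518 to 56205320 of the table's C57BL/6NJ coordinates, minus strand) had the highest mean CPM per kb in Pdk4SMKO cells. It had 79.9, 81.7 and 34.1 CPM in the Pdk4fl/fl libraries and 283, 317 and 293 CPM in the Pdk4SMKO libraries. The lowest Pdk4SMKO library thus lay above the highest Pdk4fl/fl library, and the third Pdk4fl/fl library stood below the other two. The mean rose 4.56-fold, from 65.2 ± 27.0 to 298 ± 17.02 CPM (SD, n = 3 each), a log2 fold change of 2.19 ± 0.28 (SE, adjusted p = 4.08e-05, edgeR). Without Pdk4fl/fl replicate 3 it was 1.87.

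*Klf2* (chromosome 8 from 75561807 to 75564430, plus strand), the closest relative of *Klf4* in function in endothelium, started from the lowest level of the 10. Its counts were 14, 10 and 5 in the Pdk4fl/fl libraries and 235, 309 and 141 in the Pdk4SMKO libraries, or 0.933, 0.549 and 0.378 against 10.3, 15.4 and 6.92 CPM. The groups were far apart, although the Pdk4fl/fl values rested on few reads. *Klf2* rose 17.5-fold, with a log2 fold change of 4.11 ± 0.41 (SE, adjusted p = 7.16e-06, edgeR), and 3.79 to 4.49 in the fits that dropped a library. The summed level of 8 endothelial markers was 14.1 to 23.7 CPM in Pdk4fl/fl and 2.94 to 5.62 CPM in Pdk4SMKO libraries, lower where *Klf2* was higher. Most of that sum was *Kdr*, which had 16.5 CPM in Pdk4fl/fl and 2.96 CPM in Pdk4SMKO cells on average, and *Vwf* was at 2.07 and 0.947 CPM. *Pecam1* had 25, 17 and 8 counts against 1, 0 and 6, while *Cdh5*, *Tie1* and *Emcn* had at most 2 counts in any library. The part of endothelial cells in the *Klf2* values was not tested. In these bulk libraries fewer cells of a type and less RNA per cell cannot be told apart.

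*Klf5* (chromosome 14 from 99490678 to 99505392, plus strand) was expressed at a low level, at 5.47, 3.68 and 2.42 CPM in Pdk4fl/fl and 7.77, 6.77 and 7.16 CPM in Pdk4SMKO libraries. The groups did not overlap, and the gap between them was narrow. Its log2 fold change of 0.90 ± 0.29 (SE, adjusted p = 0.0151, edgeR) was under the 2-fold limit, so *Klf5* was not called. It passed that limit without Pdk4fl/fl replicate 1 (1.22), with upper-quartile factors (1.11), with library size alone (1.50) and with a minimum of 10 counts in every library (1.00).

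*Klf6* (chromosome 13 from 2560579 to 2569477, plus strand), an injury-induced factor described in liver, was the most abundant member in Pdk4fl/fl cells. It had 747, 814 and 711 CPM in the Pdk4fl/fl libraries and 276, 266 and 301 CPM in the Pdk4SMKO libraries. Each genotype was tight, with a coefficient of variation of 6.91% and 6.38%, and the ranges were far apart. *Klf6* fell 2.70-fold, a log2 fold change of -1.43 ± 0.12 (SE, adjusted p = 2.01e-06, edgeR). With library size alone it was -0.83 and not called.

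*Klf7* (chromosome 1 from 66684264 to 66778548, minus strand), the closest paralog of *Klf6*, went the other way. It had 8.13, 7.63 and 8.17 CPM in Pdk4fl/fl and 16.8, 25.9 and 25.0 CPM in Pdk4SMKO libraries, with no overlap. The first Pdk4SMKO library was the lowest of its group. *Klf7* rose 2.83-fold (log2 fold change 1.50 ± 0.20 SE, adjusted p = 5.39e-05, edgeR), and its fits with a library dropped gave 1.40 to 1.68.

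The Sin3-binding KLFs were split. *Klf9* (chromosome 19 from 21959912 to 21988627, plus strand), which glucocorticoid and thyroid hormone induce in many tissues, had 42.6, 41.2 and 24.7 CPM in Pdk4fl/fl and 202, 319 and 266 CPM in Pdk4SMKO libraries. Every Pdk4SMKO library was far above every Pdk4fl/fl library. *Klf9* rose 7.25-fold, with a log2 fold change of 2.85 ± 0.24 (SE, adjusted p = 1.77e-06, edgeR).

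*Klf13* (chromosome 7 from 67781872 to 67842988, minus strand), known for its part in T cells and the heart, had 7.27, 5.49 and 3.94 CPM in Pdk4fl/fl and 57.7, 77.8 and 66.9 CPM in Pdk4SMKO libraries. Its lowest Pdk4SMKO library was well above its highest Pdk4fl/fl library. *Klf13* rose 12.1-fold (log2 fold change 3.59 ± 0.22 SE, adjusted p = 2.41e-07, edgeR), and 3.39 to 3.82 with a library dropped.

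*Klf10* (chromosome 15 from 38234675 to 38241422, minus strand) fell, from 243, 214 and 159 CPM in the Pdk4fl/fl libraries to 36.8, 39.8 and 43.5 CPM in the Pdk4SMKO libraries. The lowest Pdk4fl/fl library was well above the highest Pdk4SMKO library. The difference was 5.12-fold, a log2 fold change of -2.36 ± 0.17 (SE, adjusted p = 6.35e-07, edgeR), with a range of -2.52 to -2.23 over the fits that left out a library.

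*Klf3* (chromosome 5 from 67071906 to 67103045, plus strand) encodes a repressor that recruits CtBP. It had 92.9, 93.7 and 81.5 CPM in Pdk4fl/fl and 172, 159 and 185 CPM in Pdk4SMKO libraries, again with no overlap. The log2 fold change was 0.94 ± 0.12 (SE, adjusted p = 3.89e-05, edgeR), so the mean was 1.92-fold higher and *Klf3* was just outside the call. It was called with upper-quartile factors (1.15), library size alone (1.55), a minimum of 10 counts in every library (1.04) and without Pdk4SMKO replicate 2 (1.00). The table lists 2 other transcripts over the span of *Klf3*, with 12 to 25 and 14 to 30 counts per library, few beside its 1077 to 3907 counts. Overlapping genes of *Klf7*, *Klf9* and *Klf13* had at most 11 counts in any library.

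*Klf15* (chromosome 6 from 94420069 to 94432732, plus strand) was the member whose groups overlapped. It had 12.9, 12.8 and 9.38 CPM in Pdk4fl/fl and 7.33, 16.5 and 13.0 CPM in Pdk4SMKO libraries. The lowest and the highest value were both found in Pdk4SMKO. Its log2 fold change of 0.07 ± 0.28 (SE, adjusted p = 0.832, edgeR) had a 95% interval from -0.56 to 0.69, which spans changes in either direction. The exact two-sided permutation test gave p = 0.8. The sign turned without Pdk4fl/fl replicate 3 (-0.08) or without Pdk4SMKO replicate 2 (-0.19).

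Beyond these 10, the table held *Klf1*, *Klf8*, *Klf11*, *Klf12*, *Klf14* and *Klf16*, of which 4 passed the filter. *Klf12* and *Klf8*, which encode the other CtBP-binding repressors, fell. *Klf12* had 85, 106 and 71 counts in Pdk4fl/fl and 5, 7 and 9 in Pdk4SMKO libraries, 16.7-fold lower (log2 fold change -4.05 ± 0.35 SE, adjusted p = 2.26e-06, edgeR), the largest decrease in the family. *Klf8* had 31, 53 and 18 counts against 16, 3 and 4 (log2 fold change -2.55 ± 0.57 SE, adjusted p = 0.00194, edgeR). The first Pdk4SMKO library was close to the third Pdk4fl/fl library in counts, and the scaled values of the genotypes did not overlap. *Klf12* and *Klf8* passed the filter through their Pdk4fl/fl libraries, since its level was reached in 0 and 1 of the 3 Pdk4SMKO libraries.

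*Klf11*, the paralog of *Klf10* and a Sin3-binding repressor as well, fell alongside it, from 36.4, 39.3 and 34.1 CPM to 10.0, 10.4 and 13.7 CPM (log2 fold change -1.69 ± 0.16 SE, adjusted p = 5.57e-06, edgeR). *Klf16* had 18.6 ± 3.71 CPM in Pdk4fl/fl and 27.1 ± 4.75 CPM in Pdk4SMKO cells (SD, n = 3 each), under 2-fold (log2 fold change 0.54 ± 0.19 SE, adjusted p = 0.0252, edgeR). *Klf1*, the erythroid KLF, had 3, 3 and 3 counts against 0, 5 and 3, and *Klf14* had 1 count in 1 of the 6 libraries. Neither was tested. Over all 14 tested *Klf* genes, 5 were called higher and 5 lower, 71.4% of them beside 59.3% of all genes. The other rows that the table assigns to the C2H2 zinc finger family numbered 390 tested genes, of which 172 were higher and 74 lower, and their median was 0.66 on the log2 scale.

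On the TMM scale the summed *Klf* level overlapped between the genotypes, and its make-up did not. To compare levels between genes, CPM was divided by the gene length of the table in kb and summed over the 10 members. The sum was 315, 319.8 and 253.5 CPM per kb in the Pdk4fl/fl libraries and 271, 325 and 306 CPM per kb in the Pdk4SMKO libraries, so the genotypes overlapped. The means were 296 ± 36.9 and 301 ± 27.3 CPM per kb (SD, n = 3 each, exact two-sided permutation test, p = 0.8). This sum depends on the library scaling and was computed on the TMM scale alone. The TMM factors were 0.784 to 0.838 in Pdk4fl/fl and 1.21 to 1.26 in Pdk4SMKO libraries, so the overlap may not hold on another scale.
In Pdk4fl/fl cells *Klf6* and *Klf10* made up 83.7% ± 3.02 of this sum and in Pdk4SMKO cells 26.7% ± 2.81 (SD, n = 3 each). *Klf4* and *Klf9* made up 10.7% ± 2.89 and 58.9% ± 2.56. The share of *Klf6* was 56.3%, 60.4% and 66.5% in the Pdk4fl/fl libraries and 24.1%, 19.4% and 23.3% in the Pdk4SMKO libraries. The share of *Klf10* went from 22.6% to 4.38% on average, that of *Klf4* from 7.01% to 32.4% and that of *Klf9* from 3.69% to 26.5%. None of these 4 shares overlapped between the genotypes (exact two-sided permutation test, p = 0.1 for each, the smallest this design allows). Most genes did not overlap either, 81.8% of all genes tested in CPM. *Klf13* went from 0.299% to 3.60%, *Klf3* from 2.70% to 5.11% and *Klf2* from 0.111% to 1.95%. *Klf15* held 1.41% and 1.44%, with overlapping libraries (exact two-sided permutation test, p = 0.9). A share within a library does not depend on how the libraries are scaled to each other. It does depend on the gene lengths, since without them the change in the share of *Klf3* was 7.13 percentage points in place of 2.42.

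**Figure D3:**
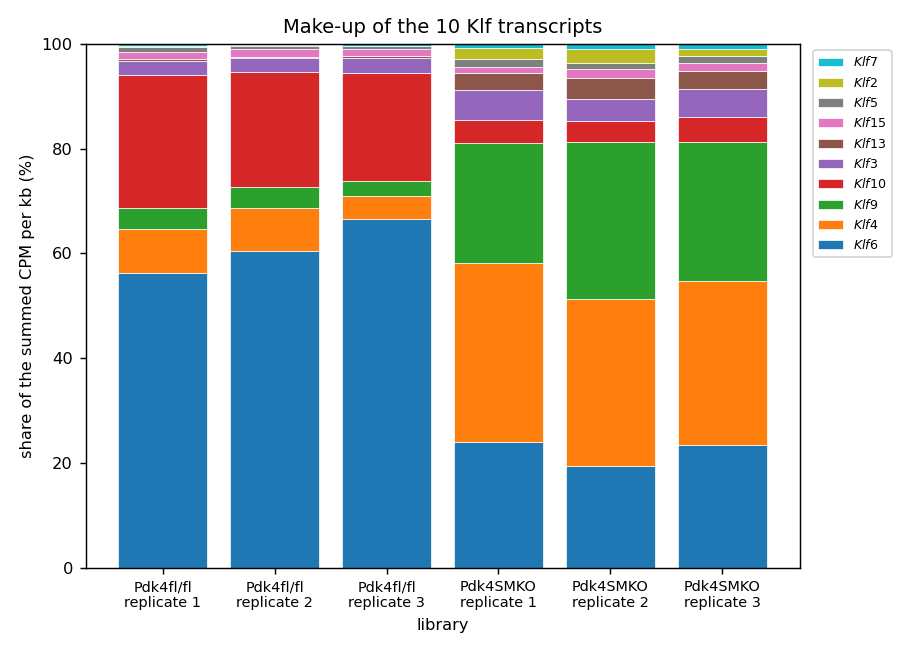
Share of each gene in the summed CPM per kb of the 10 *Klf* genes, in percent, with a stacked bar for each library. *Klf6* and *Klf10* fill 81.6% to 87.2% of the Pdk4fl/fl bars, and *Klf4* and *Klf9* fill 57% to 61.8% of the Pdk4SMKO bars.

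The order of the levels per kb changed with these shares. In Pdk4fl/fl cells *Klf6* led with 179.6 CPM per kb, followed by *Klf10* (67.4), *Klf4* (21.3), *Klf9* (11.1), *Klf3* (7.95), *Klf15* (4.19), *Klf5* (2.24), *Klf7* (0.981), *Klf13* (0.896) and *Klf2* (0.336). Neighbours overlapped over their libraries at *Klf4* and *Klf9*, *Klf9* and *Klf3*, and *Klf7* and *Klf13*, and at no other place in that order. In Pdk4SMKO cells *Klf4* led with 97.3 CPM per kb, followed by *Klf9* (80.3), *Klf6* (66.6), *Klf3* (15.3), *Klf10* (13.2), *Klf13* (10.9), *Klf2* (5.89), *Klf15* (4.402), *Klf5* (4.203) and *Klf7* (2.77). There *Klf4*, *Klf9* and *Klf6* could not be ordered at each step, since *Klf9* overlapped both its neighbours. The next gap was clear, as no library of *Klf3* reached the lowest of *Klf6*. Further down, neighbours overlapped at *Klf3* and *Klf10*, *Klf10* and *Klf13*, *Klf2* and *Klf15*, and *Klf15* and *Klf5*.

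Pairs of members were compared within each library as ratios of counts, which need no scaling. *Klf4* stood to *Klf5* as 14.6, 22.2 and 14.1 in the Pdk4fl/fl and as 36.5, 46.8 and 40.9 in the Pdk4SMKO libraries, a log2 difference of 1.31. These are the KLFs most often studied in smooth muscle growth, and their ratio moved toward *Klf4*. *Klf2* gained on *Klf4* by 1.86 on the log2 scale, and *Klf15* gained on *Klf6* by 1.44. *Klf9* stood to *Klf13* as 5.86, 7.51 and 6.27 against 3.50, 4.10 and 3.98, a log2 difference of -0.76, so the rise of *Klf13* was the larger of the pair. None of the 4 ratios overlapped between the genotypes, and each gave p = 0.1 in the exact two-sided permutation test. Of all genes tested, 81.8% did not overlap in CPM, and no such share was computed for ratios of other genes.

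The choice of scale moved all members together. With RLE factors the median log2 fold change of all genes was 0.09, with upper-quartile factors 0.33 and with library size alone 0.72, against 0.12 with TMM. Under library size alone 6184 genes were higher and 2390 lower, so that 72.1% of the called genes were higher in place of 55.3%, and 7 members were higher and 1 lower. Reference genes moved the members further, since 3 of the 6 differed between the genotypes themselves. *Actb*, the reference gene of the study's RT-qPCR, had 247 ± 24.0 CPM in Pdk4fl/fl and 2363 ± 116 CPM in Pdk4SMKO cells (SD, n = 3 each), a log2 fold change of 3.26 ± 0.14 (SE, adjusted p = 2.75e-08, edgeR). Relative to *Actb*, 2 members, *Klf2* (0.89) and *Klf13* (0.37), were above 0 and 8 were below, among them *Klf4* (-0.97) and *Klf9* (-0.39).

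Relative to *Hprt*, *Ppia* and *Tbp*, whose own log2 fold changes were -0.04, 0.02 and 0.19 and were not called, the 9 members with an adjusted p under 0.05 kept their signs and *Klf15* lay between -0.19 and 0.03. Under library size alone these 3 genes were at 0.58, 0.62 and 0.80, so their flatness holds on the TMM and RLE scales and not on that of library size. *B2m* (-3.23) and *Rplp0* (-2.24) were lower in Pdk4SMKO cells, and relative to *B2m* all 10 members were above 0. An *Actb* ratio and a *B2m* ratio thus give opposite signs for 8 of the 10 genes.

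**Figure D4:**
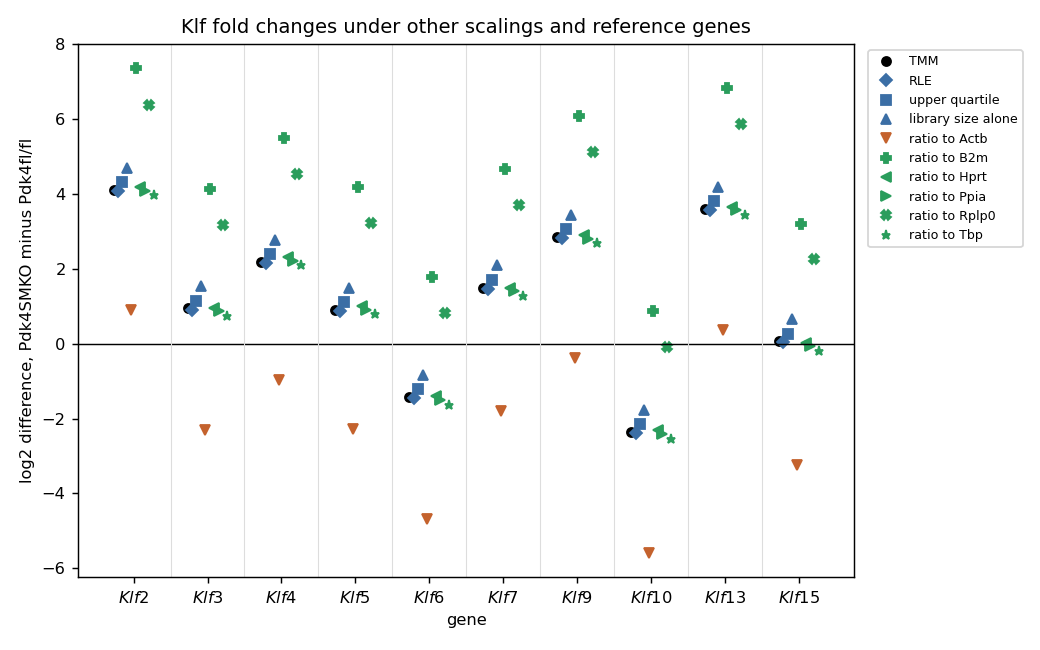
Log2 difference of each *Klf* gene between the genotypes under 4 library scalings and relative to 6 reference genes. Library scalings shift every gene by a similar amount, while *Actb* puts 8 of 10 genes below 0 and *B2m* puts 10 of 10 above 0.

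Genes that act with KLFs, upstream of them or on their targets were read from the same fit. Over these lists and the other *Klf* genes, 126 genes were tested, of which 36 were called higher and 47 lower, and under library size alone 47 and 35. Each list is to be read beside the 32.8% of all genes that were called higher and the 26.5% called lower. The Sp factors, the nearest relatives of the KLFs, had 1 of 6 tested genes higher and 2 lower, and the median of their log2 fold changes was -0.26. *Sp3*, the most abundant, fell from 273 ± 8.16 to 114 ± 9.86 CPM (SD, n = 3 each; log2 fold change -1.26 ± 0.11 SE, adjusted p = 3.5e-06, edgeR). *Sp5* had no count in any Pdk4fl/fl library and was at least 18.9-fold higher in Pdk4SMKO cells, taking a count of 3 per library as the floor. *Sp8* had no count in any Pdk4SMKO library and was at least 15.3-fold lower.

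Of 14 corepressors and cofactors of KLF proteins, 2 were higher and 2 lower, and the median was 0.07. *Sin3a*, which encodes a corepressor that KLF9, KLF10 and KLF13 recruit, rose (log2 fold change 1.90 ± 0.16 SE, adjusted p = 2.09e-06, edgeR), and its paralog *Sin3b* fell (-1.62 ± 0.14 SE, adjusted p = 2.3e-06, edgeR). The deacetylase gene *Hdac1* fell (-1.72 ± 0.11 SE, adjusted p = 3.56e-07, edgeR), and *Hdac2* had a log2 fold change of 0.50 ± 0.14 SE, under the 2-fold limit. Of 11 tested enzymes that attach or remove ubiquitin on KLFs, 2 were higher and 1 lower, and the median was 0.00. *Fbxw7*, a substrate receptor for KLF2 and KLF5, was higher (2.07 ± 0.28 SE, adjusted p = 5.99e-05, edgeR), and *Bap1*, a deubiquitinase of KLF5, was lower (-1.44 ± 0.13 SE, adjusted p = 3.25e-06, edgeR). *Huwe1*, the most abundant, was under 2-fold (0.40 ± 0.16 SE).

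The ERK5-MEF2 pathway induces *Klf2* and *Klf4* in endothelium, and class II deacetylases such as HDAC5 and HDAC7 hold MEF2 in check. Of its 12 genes 5 were higher and 4 lower, with a median of 0.27. *Hdac7* rose from 49.2 ± 8.26 to 275 ± 25.7 CPM (log2 fold change 2.48 ± 0.15 SE, adjusted p = 2.49e-07, edgeR), and *Hdac5* fell from 530 ± 101 to 150 ± 22.5 CPM (-1.83 ± 0.17 SE, adjusted p = 4.83e-06, edgeR; SD of the means, n = 3 each). Among 10 tested targets of KLF2, 4 were higher and 4 lower. *Thbd*, the thrombomodulin gene that KLF2 induces, had no count in any Pdk4fl/fl library and 462 ± 63.1 CPM in Pdk4SMKO cells, at least 2344-fold higher. *Cdkn1c* fell (-3.91 ± 0.65 SE, adjusted p = 0.000294, edgeR), and *Vcam1*, which KLF2 represses, was at 1175 ± 98.9 and 1466 ± 248 CPM and was not called. *Nos3*, the endothelial nitric oxide synthase gene and another target, had 0 counts in 5 of the 6 libraries.

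*Klf9*, *Klf13* and *Klf15* are known targets of glucocorticoid and *Klf9* and *Klf10* of the clock, so both lists were read beside them. Of 12 tested glucocorticoid-responsive genes 3 were higher (32.8% of all genes) and 6 lower (26.5%), with a median of -0.77. *Per1*, which both systems control, fell from 2407 ± 325 to 51.6 ± 8.72 CPM (log2 fold change -5.54 ± 0.20 SE, adjusted p = 1.45e-08, edgeR), and *Zbtb16*, with no count in Pdk4fl/fl libraries, was at least 8.28-fold higher. Of 15 tested clock genes 1 was higher and 10 were lower, with a median of -1.42, beside 26.5% of all genes lower. *Ciart* fell from 718 ± 37.1 to 0.782 ± 0.235 CPM (-9.82 ± 0.22 SE, adjusted p = 8.52e-09, edgeR), *Nr1d1*, the most abundant of the list, from 1001 ± 129.6 to 25.9 ± 6.77 CPM (-5.28 ± 0.23 SE, adjusted p = 3.01e-08, edgeR), and *Npas2* rose (2.15 ± 0.28 SE, adjusted p = 4.53e-05, edgeR).

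*Klf2*, *Klf4*, *Klf6* and *Klf10* are early response genes. Of 15 other immediate early genes 2 were higher (32.8% of all genes) and 9 lower (26.5%), with a median of -2.02. *Egr1*, the most abundant, fell from 8655 ± 1297 to 601 ± 135 CPM (-3.85 ± 0.22 SE, adjusted p = 1.31e-07, edgeR; SD of the means, n = 3 each). *Jun* fell furthest (-6.28 ± 0.21 SE, adjusted p = 1.17e-08, edgeR) and *Egr3* rose (4.09 ± 0.44 SE, adjusted p = 1.19e-05, edgeR). *Klf6* and *Klf10* had the direction of most of this list, and *Klf2* and *Klf4* had the opposite one.

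**Figure D5:**
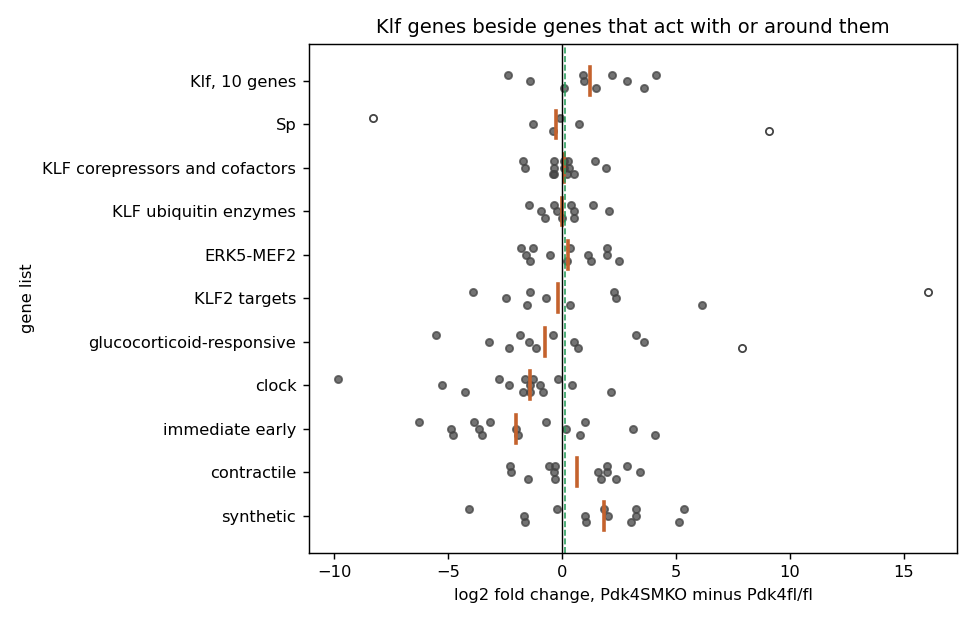
Log2 fold change of each tested gene in each list, with the list's median as a vertical bar and the median of all genes tested as a dashed line; open circles are genes with at most 3 counts in every library of a genotype, whose fitted value is no measure of size. The 10 *Klf* genes spread from -2.36 to 4.11, and the immediate early list has its median at -2.02; relative to *Actb* or *B2m* all points shift together and signs turn.

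Contractile and synthetic genes of smooth muscle differed in both directions. Of 14 contractile genes 7 were higher (32.8% of all genes) and 3 lower (26.5%), with a median of 0.64. *Acta2* had 233 ± 40.8 CPM in Pdk4fl/fl and 701 ± 74.5 CPM in Pdk4SMKO cells (log2 fold change 1.59 ± 0.16 SE, adjusted p = 6.58e-06, edgeR; SD, n = 3 each). *Tagln* fell from 253 ± 38.6 to 52.7 ± 29.7 CPM (-2.26 ± 0.32 SE, adjusted p = 9.73e-05, edgeR) and *Cnn1* from 19.5 ± 1.15 to 6.88 ± 6.22 CPM (-1.50 ± 0.48 SE, adjusted p = 0.0155, edgeR). *Smtn* fell furthest (-2.28 ± 0.19 SE, adjusted p = 2.01e-06, edgeR), and *Actg2* rose (3.42 ± 0.62 SE, adjusted p = 0.000529, edgeR) from 0.160 to 1.89 CPM. *Tpm1*, the most abundant, was under 2-fold (-0.38 ± 0.15 SE). Of 13 synthetic genes 9 were higher (32.8% of all genes) and 3 lower (26.5%), with a median of 1.82. *Fn1* rose from 3285 ± 851 to 11580.0 ± 1450.0 CPM (1.82 ± 0.21 SE, adjusted p = 1.86e-05, edgeR), *Ly6a* rose most (5.36 ± 0.32 SE, adjusted p = 2.05e-07, edgeR), and *Lgals3* fell (-4.07 ± 0.17 SE, adjusted p = 2.62e-08, edgeR). Some markers of other cells differed between the genotypes as well. Of the 8 fibroblast markers 5 were higher and 1 lower, and 2 of them, *Col1a1* and *Ly6a*, are also in the synthetic list. All 7 tested mesothelial markers were higher, with *Msln* at 6.43 ± 1.31 and 410.0 ± 174 CPM. Most of the 7 had at most 5 counts in every Pdk4fl/fl library and passed the filter through the Pdk4SMKO libraries. The macrophage markers summed to 21.6 to 38.0 CPM in Pdk4fl/fl and 10.2 to 31.8 CPM in Pdk4SMKO libraries, with 5 of 6 tested genes higher and *Cd68*, the most abundant, lower. Most of those 5 had no count in any Pdk4fl/fl library and passed the filter in the same way. Counts of such genes called higher are thus largely fixed by the filter. The part of these other cells in the *Klf* values was not tested.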

How the data were processed

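RNA from MASMCs of 3 Pdk4fl/fl and 3 Pdk4SMKO cultures treated with Ang II was sequenced, and the labels gave each sample its genotype. The authors deposited raw counts, that is, integer read numbers for each gene, in 1 table of 6 columns. The labels name a SMARTER library kit and the study's methods a NEBNext kit. The aligner, the counter and the use of strand are not given in the sources used here. The submitters' processing notes name GRCm39, while the gene identifiers belong to the Ensembl gene set of strain C57BL/6NJ, so coordinates are printed as the table gives them.

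Counts were filtered with filterByExpr, scaled by TMM and tested with the quasi-likelihood test of edgeR 4.0.16 (limma 3.58.1, R 4.3.3) with genotype as the only term, and p-values were adjusted by Benjamini-Hochberg over all 14085 genes tested. The standard error is the log2 fold change divided by the square root of the F statistic. CPM values use the TMM-scaled library sizes, without a pseudocount. The floor of 3 counts covers counting error alone, and a fold against a genotype at or under it is a bound. The fit was tested on simulated data with 200 changed genes and all others unchanged. Far more genes differed in the real data, so the simulation does not show whether TMM centred these fold changes correctly. The members and gene lists were chosen with earlier results of these data known, and no p was adjusted over a list. Named genes are the members, the other *Klf* genes, *Pdk4*, *Acta2*, *Cnn1* and *Tagln*, and of each list the most abundant gene and the called genes with the lowest and the highest fold change. *Myh11*, *Nos3*, *Cdh5*, *Tie1*, *Emcn*, *Vwf*, *Pecam1*, *Sin3b*, *Hdac2*, *Xist* and the reference genes fall outside this rule and were named after their values were seen. A gene that this rule takes in is not reported here. Promoters came from RefSeq (GRCm38.p6), matched by symbol.

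As alternatives, libraries were scaled by RLE, by the upper quartile or by their size, DESeq2 1.42.0 replaced edgeR, the filter was dropped or raised to 10 counts in each library, genes were limited to protein-coding ones, the test was made against a 2-fold change, replicate number was blocked, libraries were dropped in turn, and members were read as the ratio to *Actb* and as shares without gene length.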

Additional observations from a re-analysis of the deposited data

How the results depend on the processing

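With library size alone in place of TMM, 2390 genes were called lower in place of 3733 and 1 member in place of 2, since *Klf6* was no longer called. The counts of called members were otherwise 5 to 7 higher and 2 lower over the alternatives that gave them, and those fits included DESeq2 (4481 genes higher and 3783 lower). *Klf15* ranged from -0.19 to 0.34 over the fits that dropped a library and turned to -0.08 without Pdk4fl/fl replicate 3 and to -0.19 without Pdk4SMKO replicate 2. The ratio to *Actb* turned *Klf4* (-0.97), *Klf7* (-1.79) and *Klf9* (-0.39). Ratios to 5 further reference genes were added after seeing the data, of which *B2m* turned *Klf6* (1.77) and *Klf10* (0.86) and *Rplp0* turned *Klf6* (0.81). These turns follow from the reference genes' own fold changes. *Klf2* was not tested with at least 10 counts in every library. With the replicate number as a block, 4577 genes were higher and 3704 lower, with 5 and 2 members called as without it. Correlations between same-numbered libraries were 0.052, 0.133 and 0.287. They were not compared with those of differently numbered libraries, so whether the number marks more than a label was not tested. Depth limits *Klf1*, *Klf14* and the Pdk4fl/fl values of *Klf2*.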
